A study of Mus musculus with 15 samples.

Results

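Endocrine cells of the mouse pancreas arise from an epithelium of progenitor cells that make Sox9, and they pass through a short state in which Neurog3 (Ngn3), a basic helix-loop-helix transcription factor, switches on the endocrine programme. The comparison described here set Ngn3-GFP+ cells of e15.5 (embryonic day) against Sox9-GFP+ cells of e10.5, the early pancreatic bud. It took 6 of the 15 arrays of the series, 3 per group, chosen by the genotype, sort and age in their labels. Neurog3 is known to activate genes such as Neurod1, Pax4, Insm1 and Nkx2-2, and the cells that carry it leave the cell cycle and later make insulin, glucagon, somatostatin, pancreatic polypeptide or ghrelin. Sox9 keeps the surrounding progenitors multipotent and is held up by Notch signalling.

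The Ngn3-GFP+ embryos came from Ngn3-EGFP males and wild-type CD1 females, and the Sox9-GFP+ embryos from Sox9-EGFP males and wild-type CD1 females. The reporter strain therefore differed between the 2 groups together with the age. The remaining embryonic group, 3 arrays of Sox9-GFP+ cells of e15.5 from the same Sox9-EGFP cross, shares its strain with the early group and its age with the Ngn3-GFP+ group. In all 3 groups the brightest GFP cells of dissected pancreas were collected, and several animals were pooled before each sort. The labels do not say how the reporter alleles were made or whether the 3 arrays of a group came from separate pools, so the p-values measure the spread between these arrays, which may be partly technical. The remaining 6 arrays, from Sox9-EGFP pups of postnatal day 23, are not compared here. They enter the estimate of the spread, the choice of probe set, the filter on low values and the means that define dim genes. A gene can therefore pass the filter through these arrays.

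All levels below are log2(intensity + 16), where the intensity is the deposited array value, and all differences are on that scale, so the change of dim genes is understated. The full difference, Ngn3-GFP+ e15.5 minus Sox9-GFP+ e10.5, is the sum of 2 steps. The stage step is Sox9-GFP+ e15.5 minus Sox9-GFP+ e10.5, which compares Sox9-GFP+ cells 5 days apart. The sort step is Ngn3-GFP+ e15.5 minus Sox9-GFP+ e15.5, which compares the 2 sorts at one age. The 3 differences share arrays by construction (the full difference and the stage step share the e10.5 arrays, the full difference and the sort step the Ngn3-GFP+ arrays, and the 2 steps the Sox9-GFP+ e15.5 arrays), so each gene's values are set side by side and no agreement between them is counted. Calls are at a Benjamini-Hochberg adjusted p under 0.05 in limma over 16881 tested genes, and errors are limma standard errors (SE) with n = 3 arrays per group. In bulk samples, fewer cells of a type and less RNA per cell cannot be told apart.

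Of the 16881 genes, 3712 (22.0%) were called in the full difference, 1628 higher (9.64%) and 2084 lower (12.3%) in the Ngn3-GFP+ arrays. At least 2-fold changes were seen in 579 of the higher and 632 of the lower genes. The stage step called 4753 genes (28.2%, with 12.2% higher) and the sort step 7033 (41.7%; 23.3% higher, 18.4% lower). Among the genes called in the full difference, 1144 (6.78% of genes tested) were called in the stage step alone and 1652 (9.79%) in the sort step alone, both in the direction of the full difference. Another 176 (1.04%) were called in both steps in one direction, 183 (1.08%) had called steps of opposite sign, and 557 (3.30%) had neither step called. The split was uneven by direction. Of the genes called in the stage step alone 804 rose (4.76% of genes tested) and 340 fell (2.01%), and of those called in the sort step alone 343 rose (2.03%) and 1309 fell (7.75%). Without regard to a test, the 2 groups did not overlap in 31.3% of genes. The list counts below are to be read beside the shares of all genes called higher (9.64%) and lower (12.3%).

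Arrays within a group were less alike in the Ngn3-GFP+ group (correlations over genes of 0.933 to 0.952) than in the e10.5 group (0.969 to 0.988) or the Sox9-GFP+ e15.5 group (0.988 to 0.995). Ngn3-GFP+ array 2 held the lowest Sox9 (10.13) and the highest Alb (10.97) and Afp (10.98) of its group, array 1 the highest acinar enzymes (Cpb1 11.59) and array 3 the highest gut markers (Tff3 12.90). The embryonic globin Hbb-y stood at 10.48 and 11.20 in e10.5 arrays 1 and 2 and at 9.98 in Sox9-GFP+ e15.5 array 1, against 5.85 to 6.35 in the other 6 embryonic arrays. Without these 3 arrays, which leaves 1 e10.5 array, 1016 genes were called in the full difference, so the count of each list is given below with and without them. Dim genes lay lower in the Sox9-GFP+ e15.5 arrays than in the other groups: over the 5640 genes whose mean was below the median of the table, the median difference was -0.31 in the stage step, 0.35 in the sort step and 0.05 in the full difference. A step is called below for a named gene only where its call also held when each of the 9 arrays was left out in turn, and is otherwise given as a value. Leaving out single arrays cannot remove a shift that a whole group shares. After quantile normalization 2788 genes were called in the stage step and 4115 in the sort step, against 4753 and 7033 without it.

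The 2 genes that the reporters are named for were looked at first, since their levels bear on the labels. Neurog3 (chr10:62133090-62134763, GRCm38.p6) read 10.24, 10 and 9.23 in the Sox9-GFP+ e10.5 arrays, 12.12, 11.82 and 11.66 in the Sox9-GFP+ e15.5 arrays and 11.53, 11.75 and 12.21 in the Ngn3-GFP+ arrays. The e10.5 arrays all lay below the others, and the 2 sorts of e15.5 overlapped. Neurog3 rose 4.02-fold (2.01 ± 0.23 SE, adjusted p = 3.12e-05 in limma), with a called stage step of 2.04. Between the 2 sorts of e15.5 it differed by -0.04 ± 0.23 (adjusted p = 0.911), so higher Neurog3 RNA than in the Sox9-GFP+ sort of the same age was not detected. Sox9 (chr11:112782210-112787757) read 12.12, 11.93 and 11.84 at e10.5, 12.14, 12.10 and 12.11 in the Sox9-GFP+ e15.5 arrays, and 11.21, 10.13 and 11.14 in the Ngn3-GFP+ arrays, where every array lay below both other groups. Its full difference was -1.14 ± 0.32 (adjusted p = 0.018), with a stage step of 0.15 and a sort step of -1.29. That call rests on few arrays: without Ngn3-GFP+ array 2 the difference was -0.79 (adjusted p = 0.0745), and without e10.5 array 1 or 2 it was -1.06 (adjusted p = 0.0669) or -1.16 (adjusted p = 0.0509).

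**Figure D1:**
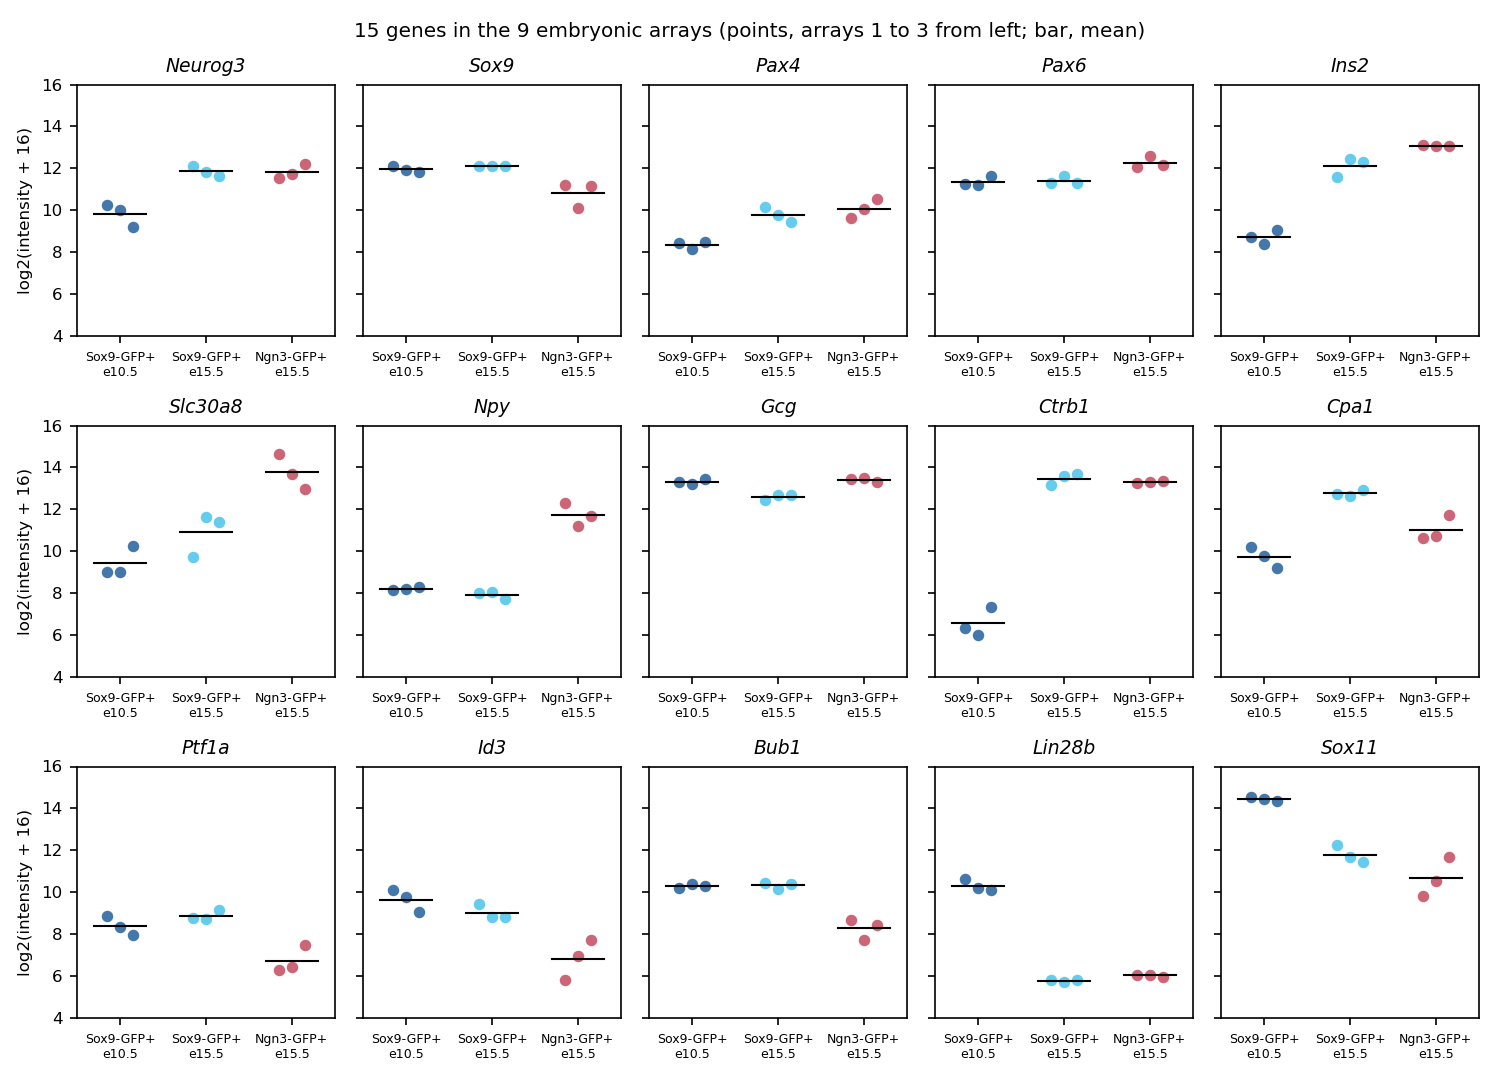
Level of 15 genes in each of the 9 embryonic arrays, as log2(intensity + 16) on the vertical axis, with the 3 groups side by side (points, single arrays; bars, group means). Neurog3 lies at 11.66 to 12.12 in the Sox9-GFP+ and at 11.53 to 12.21 in the Ngn3-GFP+ arrays of e15.5, Npy is high only in the Ngn3-GFP+ arrays (11.19 to 12.31), and Lin28b is high only at e10.5 (10.12 to 10.66).

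Of 22 tested early endocrine progenitor genes (Neurog3, its known targets and other genes of Neurog3-making cells), 10 rose and 1 fell, with a median difference of 0.65 against 0.02 over all genes tested. Of the 10, 7 were called in the stage step alone, while the list's median stage step was 0.36 and its median sort step 0.30. The split depended on the scaling. After quantile normalization 11 rose and 1 fell, with 4 called in the stage step alone, 2 in the sort step alone and 3 in both. Pax4, a homeobox repressor that favours the beta and delta lineages, read 8.46, 8.14 and 8.49 at e10.5, 10.17, 9.76 and 9.45 in Sox9-GFP+ cells of e15.5 and 9.62, 10.05 and 10.56 in Ngn3-GFP+ cells. It rose 3.28-fold (1.71 ± 0.23, adjusted p = 0.00012), of which the stage step gave 1.43 and the sort step 0.28. Cbfa2t3, a corepressor, went from between 7.15 and 7.65 at e10.5 to between 8.75 and 9.48 in Ngn3-GFP+ cells (1.72 ± 0.20), with 1.27 of it in the stage step. St18 and Tox3, which code for a zinc finger and an HMG-box protein, rose by 1.17 ± 0.20 and 1.19 ± 0.21, with stage steps of 0.84 and 0.88. Btg2, an antiproliferative gene, rose by 1.48 ± 0.15 with a stage step of 1.61. In all 5 of these genes the sort step was not called.

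Other early endocrine genes differed between the 2 sorts of e15.5. Myt1, a zinc finger factor of endocrine progenitors, climbed from 9.14, 9.09 and 9.36 at e10.5 through 10.46, 10.44 and 10.03 in Sox9-GFP+ cells to 10.77, 11.56 and 11.09 in Ngn3-GFP+ cells (1.94 ± 0.21, adjusted p = 2.53e-05). The 3 groups did not overlap. Its stage step was 1.11 and its sort step 0.83, the latter with an adjusted p of 0.01 that became 0.0512 without Sox9-GFP+ e15.5 array 3. Pak3, a kinase of differentiating endocrine cells, showed the opposite split, with a stage step of 0.13 and a called sort step of 0.87 (full difference 0.99 ± 0.18). Several of the best known genes of the list did not pass the test: Neurod1 differed by 0.67 ± 0.29 (adjusted p = 0.127), Insm1 by 0.67 ± 0.23 (adjusted p = 0.0561) and Rfx6 by 0.49 ± 0.23 (adjusted p = 0.148). Neurod1 read 10.44, 10.29 and 10.42 at e10.5 and 11.11, 11.03 and 11.02 in Ngn3-GFP+ cells, so its groups did not overlap although the difference missed the threshold. Nkx2-2 read 11.19, 11.08 and 11.07 at e10.5 and 11.32, 11.92 and 12.01 in Ngn3-GFP+ cells, a rise of 0.63 ± 0.18 (adjusted p = 0.0205) whose call was lost without array 2 or 3 of either group (differences of 0.50 to 0.62, adjusted p up to 0.0792). With the 3 globin-high arrays left out, 6 genes of the list were called higher and the median was 0.66. Fev and Cdkn1a were not analysed here.

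Later islet transcription factors split in several ways. Of 19 tested, 7 rose and 1 fell, and the median was 0.05. Pax6, which glucagon and other hormone genes need, read 11.28, 11.20 and 11.62 at e10.5, 11.29, 11.64 and 11.30 in Sox9-GFP+ cells of e15.5 and 12.07, 12.61 and 12.16 in Ngn3-GFP+ cells. It rose by 0.92 ± 0.21 (adjusted p = 0.00681), all of it in the sort step (0.87). Mlxipl, the carbohydrate response factor ChREBP, read 9.29, 9.22 and 9.38 at e10.5 and 11.06, 12.08 and 11.51 in Ngn3-GFP+ cells and rose 4.77-fold (2.25 ± 0.23), with a stage step of 0.85 and a called sort step of 1.40. Meis2, a TALE homeobox gene, rose by 1.36 ± 0.18, of which 0.91 came with the stage step. Nkx6-1, a beta cell factor also made in progenitors, rose by 1.16 ± 0.29 and had a sort step of 0.16. Hopx, an atypical homeobox gene, rose by 2.40 ± 0.54 from a low level. Isl1 differed by 0.05 ± 0.27 (adjusted p = 0.925) and Pdx1 by 0.18 ± 0.21 (adjusted p = 0.627), and both were already between 11.48 and 11.91 in every e10.5 array. Mafa stayed between 6.70 and 7.15 in all 9 arrays. Lmx1a was not analysed here. Without the globin-high arrays 3 members were called higher.

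Among 14 tested hormone and peptide genes, 7 rose and 1 fell, with a median of 1.20, and 5 rose and 1 fell without the globin-high arrays (median 0.88). The members differed in their pattern over the 3 groups. Glucagon (Gcg) was already at 13.29, 13.20 and 13.46 in the e10.5 arrays and read 13.45, 13.50 and 13.33 in the Ngn3-GFP+ arrays, a difference of 0.11 ± 0.32 (adjusted p = 0.864). Peptide YY (Pyy) behaved alike in its values, between 13.15 and 13.23 at e10.5 and between 13.19 and 13.30 in Ngn3-GFP+ cells (0.05 ± 0.44, adjusted p = 0.955). Ins2, an insulin gene (chr7:142678656-142679726), read 8.72, 8.38 and 9.07 at e10.5, 11.59, 12.43 and 12.32 in Sox9-GFP+ cells of e15.5 and 13.11, 13.06 and 13.06 in Ngn3-GFP+ cells. The 3 groups did not overlap, and the rise was 20.4-fold (4.35 ± 0.24, adjusted p = 5.82e-08). The stage step (3.39) held most of it, and the sort step (0.96) was called as well. Whether the array signal was compressed at the high levels of Gcg, Pyy and Ins2 was not tested.

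Iapp, the amyloid peptide released with insulin, rose 9.57-fold (3.26 ± 0.30), with called steps of 1.72 and 1.54. Somatostatin (Sst) read 9.13, 8.27 and 9.06 at e10.5, 10.12, 12.15 and 11.79 in the later Sox9-GFP+ arrays and 13.21, 12.37 and 12.68 in Ngn3-GFP+ cells (3.93 ± 0.46, adjusted p = 4.22e-05). Its sort step was 1.40, and became 0.78 without Sox9-GFP+ e15.5 array 1, the lowest of that group. Ppy, pancreatic polypeptide, rose by 2.12 ± 0.51 and had steps of 1.54 and 0.58. Ghrelin (Ghrl) differed by 1.29 ± 0.39 (adjusted p = 0.0267), with no step called, and the call was lost without any one of 4 arrays (e10.5 array 1 or 2, Ngn3-GFP+ array 2 or 3; differences of 1.14 to 1.34, adjusted p up to 0.105).

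Neuropeptide Y showed the sharpest sort-step pattern of the list. Npy (chr6:49822710-49829507) read 8.14, 8.23 and 8.31 at e10.5, 8, 8.06 and 7.71 in Sox9-GFP+ cells of e15.5 and 12.31, 11.19 and 11.68 in Ngn3-GFP+ cells. The Sox9-GFP+ arrays of both ages lay together and the Ngn3-GFP+ arrays stood far above them. The rise was 11.3-fold (3.50 ± 0.23, adjusted p = 3.4e-07), from a stage step of -0.30 and a sort step of 3.80. Gastrin (Gast), a stomach hormone also made in the fetal pancreas, read 9.54, 9.51 and 8.98 at e10.5 and 10.69, 12.04 and 12.09 in Ngn3-GFP+ cells (2.26 ± 0.28), with a called sort step of 1.55 and a stage step of 0.72. Galanin (Gal), another neuropeptide, fell from 9.05, 8.49 and 8.51 to 6.57, 4.63 and 5.53 (-3.11 ± 0.40, adjusted p = 8.25e-05), with a called stage step of -1.94. Ins1 was not analysed here.

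Because Neurog3 acts through E-boxes, the promoters of a known target and of the gene with the largest rise called in the sort step alone are shown, from RefSeq (GRCm38.p6), as 250 bases before to 50 after the start site. Capitals mark each E-box, CANNTG, read on both strands at once since the motif is its own reverse complement. Of 32534 promoters of this length, 72.3% hold at least 1.
Nkx2-2, chr2:147186353-147186652, minus strand: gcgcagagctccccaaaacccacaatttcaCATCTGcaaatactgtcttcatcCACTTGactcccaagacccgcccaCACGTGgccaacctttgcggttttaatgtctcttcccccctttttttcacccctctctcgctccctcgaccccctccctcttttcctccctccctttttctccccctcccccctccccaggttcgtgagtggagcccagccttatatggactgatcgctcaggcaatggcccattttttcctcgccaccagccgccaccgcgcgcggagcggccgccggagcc
Npy, chr6:49822460-49822759, plus strand: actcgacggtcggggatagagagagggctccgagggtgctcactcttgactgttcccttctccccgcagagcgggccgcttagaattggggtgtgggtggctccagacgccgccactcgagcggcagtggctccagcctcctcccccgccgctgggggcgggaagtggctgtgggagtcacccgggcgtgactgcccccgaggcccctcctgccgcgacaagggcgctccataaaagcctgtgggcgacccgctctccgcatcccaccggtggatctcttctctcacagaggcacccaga
The Nkx2-2 window holds 3 E-boxes (17.6% of all promoters hold as many or more), and the Npy window holds 0. Not shown are the windows of Neurod1, another known target, with 1, and of Ero1b, a further gene called in the sort step alone, with 0. No match says only that these letters are not in this window. Pax4 and Insm1 have no entry in the promoter table.

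Of 20 tested secretory granule genes 15 rose, 0 fell and 5 were not called, 19 had a difference above 0 and the median was 1.19. Without the globin-high arrays 6 were called, 18 had a difference above 0 and the median was 1.13. Slc30a8, the zinc transporter of insulin granules, read 9.03, 9.03 and 10.27 at e10.5, 9.73, 11.64 and 11.41 in Sox9-GFP+ cells of e15.5 and 14.64, 13.68 and 12.99 in Ngn3-GFP+ cells. Its rise was 20.1-fold (4.33 ± 0.48, adjusted p = 2.64e-05), and its sort step of 2.84 was called, beside a stage step of 1.49. Scgn, a calcium sensor of islet cells, rose 18.7-fold from between 7.91 and 8.05 to between 11.76 and 12.49 (4.23 ± 0.23), mostly in the stage step (3.29), with a sort step of 0.94. Scg2, a granin, rose 16.3-fold (4.03 ± 0.34), with called steps of 2.49 and 1.53. Pcsk1, the convertase that cuts proinsulin, read 9.54, 9.63 and 9.55 at e10.5 and 12.35, 11.92 and 11.37 in Ngn3-GFP+ cells (2.30 ± 0.29) and had steps of 1.29 and 1.01.

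Other granule genes moved less. Chromogranin A (Chga) rose by 1.92 ± 0.35, with steps of 0.99 and 0.93, and Scg3 by 1.73 ± 0.34, with steps of 0.66 and 1.08. Pcsk1n, an inhibitor of that convertase, rose by 1.21 ± 0.18 with the whole difference in the stage step (1.21) and a sort step of -0.01. Cpe, the carboxypeptidase that trims prohormones, read 12.10 to 12.39 at e10.5 and differed by 0.63 ± 0.19 (adjusted p = 0.0303). That call was lost without e10.5 array 1 or 2 or Ngn3-GFP+ array 1 or 2, where the difference was 0.55 to 0.64 (adjusted p up to 0.121). Chgb, another granin, differed by 1.39 ± 0.41 (adjusted p = 0.0263), and its call was lost without array 2 or 3 of either group (1.23 to 1.36, adjusted p up to 0.0974). Pcsk2 was not analysed here.

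In the exocytosis machinery 8 of 22 tested genes rose and 1 fell, with a median of 0.36 (4 and 1 without the globin-high arrays). The granule-tethering synaptotagmin-like gene Sytl4 stood apart from the rest. It read 6.95, 6.63 and 6.60 at e10.5, 7.72, 8.17 and 8.27 in the later Sox9-GFP+ arrays and 11.22, 10.95 and 10.68 in Ngn3-GFP+ cells, a rise of 18.7-fold (4.22 ± 0.17, adjusted p = 1.49e-09) with called steps of 1.33 and 2.89. Syt13, a synaptotagmin, rose by 1.63 ± 0.19, with a called sort step of 1.13, and Rph3al, a Rab effector of exocytosis, by 0.95 ± 0.13, all of it in the sort step (0.96). Slc18a2, the vesicular monoamine transporter, was the member that fell, from between 7.98 and 8.19 to between 6.92 and 7.01 (-1.14 ± 0.18).

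Genes of excitability and nutrient sensing gave 12 rises and 1 fall among 21 tested, with a median of 1.08 (5 and 1, median 0.89, without the globin-high arrays). G6pc2, an islet glucose-6-phosphatase, read 6.44, 6.53 and 6.75 at e10.5, 7.75, 8.74 and 8.51 in the later Sox9-GFP+ arrays and 12.17, 10.54 and 10.23 in Ngn3-GFP+ cells, a rise of 21.2-fold (4.41 ± 0.41) with called steps of 1.76 and 2.65. Glp1r, the receptor of the incretin GLP-1, rose 13.5-fold from between 5.70 and 5.95 to between 9.08 and 9.90 (3.76 ± 0.23), with a sort step of 2.90 and a stage step of 0.86. Slc2a2, the glucose transporter GLUT2, rose by 2.12 ± 0.23 and Insrr, an insulin receptor relative, by 2.20 ± 0.15, with called sort steps of 1.36 and 1.40. Abcc8, the sulfonylurea receptor of the KATP channel, read 10.55, 10.43 and 10.94 at e10.5, 10.19, 10.81 and 10.43 in the later Sox9-GFP+ arrays and 11.68, 11.93 and 11.87 in Ngn3-GFP+ cells (1.18 ± 0.20), all of it in the sort step (1.35). Its partner Kcnj11 differed by 0.26 ± 0.13 (adjusted p = 0.179). Adcy8, a calcium-stimulated adenylyl cyclase, fell from 8.76, 8.97 and 8.74 to 6.70, 6.49 and 6.42 (-2.29 ± 0.17) and read 6.70, 6.94 and 6.51 in Sox9-GFP+ cells of e15.5, so its fall lay in the stage step.

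**Figure D2:**
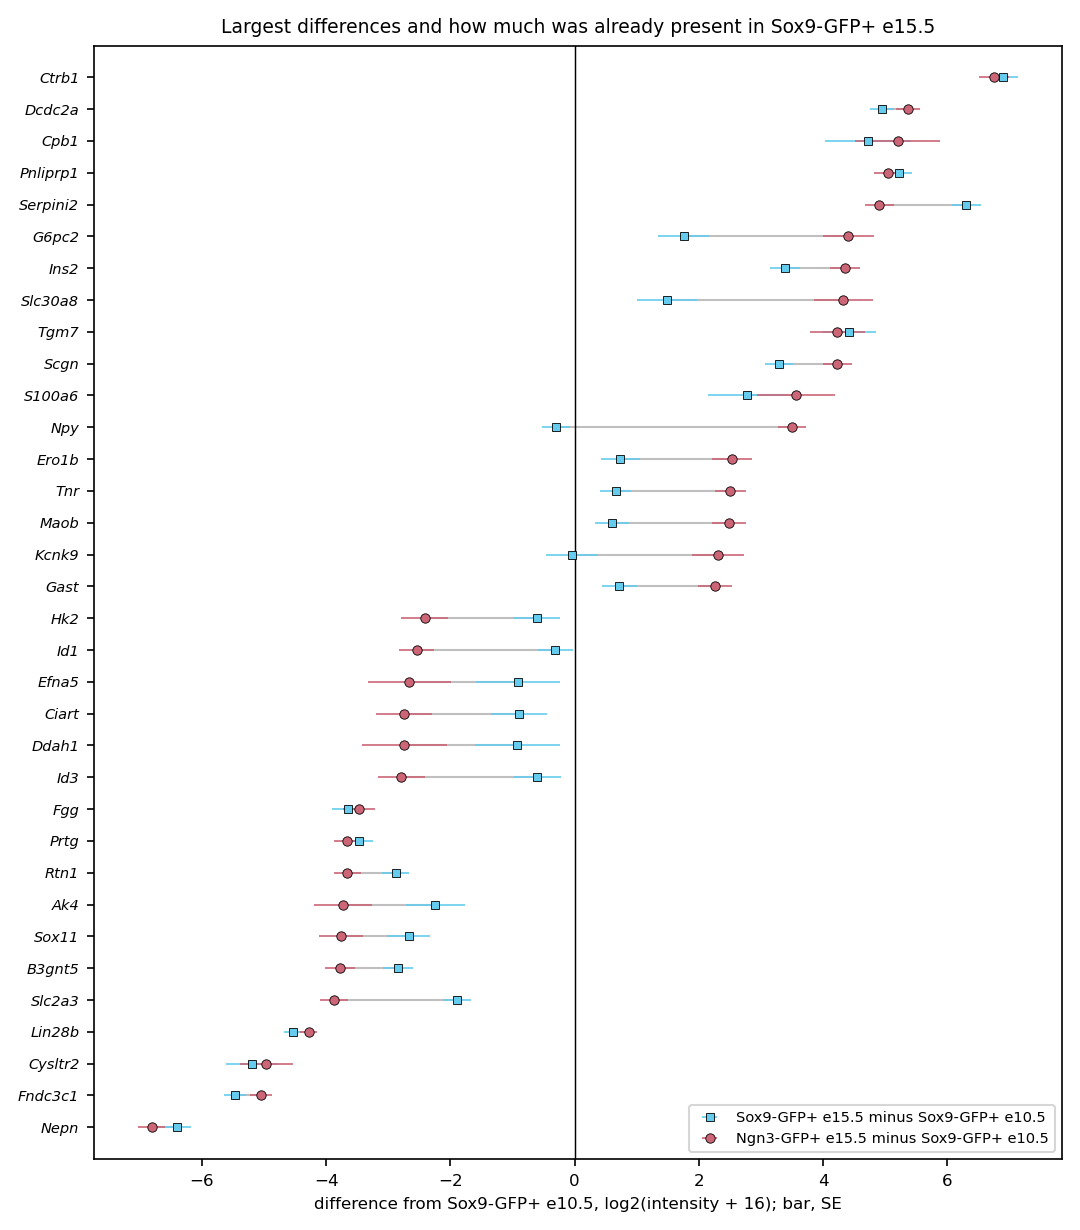
Differences from the Sox9-GFP+ e10.5 arrays for the genes with the largest changes of each kind, in log2(intensity + 16) units: circles, Ngn3-GFP+ e15.5 arrays; squares, Sox9-GFP+ e15.5 arrays; bars, SE. Where the 2 symbols coincide the change was already present in Sox9-GFP+ cells of e15.5 (Ctrb1, 6.76 and 6.90), and where the square lies near 0 it was seen in the Ngn3-GFP+ sort (Npy, 3.50 and -0.30).

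The 10 largest rises of the whole comparison, which included genes of the acinar, duct and islet lists, were Ctrb1, Dcdc2a, Cpb1, Pnliprp1, Serpini2, G6pc2, Ins2, Slc30a8, Scgn and Tgm7. Besides the islet genes above, the largest rises called in the sort step alone included Ero1b, an oxidoreductin gene (2.54 ± 0.32), and Maob, a monoamine oxidase (2.49 ± 0.27). They also included Tnr, a tenascin (2.51 ± 0.25), and Kcnk9, a potassium channel (2.31 ± 0.42). Ero1b read 8.55, 8.80 and 9.14 at e10.5, 8.78, 9.88 and 10.04 in the later Sox9-GFP+ arrays and 11.85, 11.50 and 10.76 in Ngn3-GFP+ cells. Tgm7, a transglutaminase, was called in the stage step, with 6.13, 6.48 and 6.50 at e10.5, 11.29, 10.71 and 10.36 in the later Sox9-GFP+ arrays and 9.09, 11.26 and 11.44 in Ngn3-GFP+ cells.

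Notch pathway genes gave 0 rises and 9 falls among 24 tested, with a median of -0.18 (2 falls and -0.16 without the globin-high arrays), and 6 of the 9 were called in the sort step alone. Among ligands and receptors, Jag1 read 9.20, 9.06 and 9.14 at e10.5, 9.15, 9.01 and 9.27 in the later Sox9-GFP+ arrays and 8.14, 7.94 and 8.65 in Ngn3-GFP+ cells (-0.89 ± 0.16, adjusted p = 0.000928). Notch1 fell by 0.55 (SE 0.13) and Adam10, the protease that releases the receptor's outer part, fell by 0.62 (SE 0.09), both with the difference in the sort step. Dll1, the ligand that Neurog3 induces, differed by -0.32 ± 0.23 (adjusted p = 0.389). Rbpj, the DNA-binding partner of the Notch fragment, fell by 0.50 (SE 0.12).

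Among the known targets of the pathway, some fell and others were not called. Hes1, the repressor of Neurog3, read 8.79, 8.45 and 8.27 at e10.5, 9.07, 8.97 and 8.89 in the later Sox9-GFP+ arrays and 7.66, 7.37 and 7.62 in Ngn3-GFP+ cells. The Ngn3-GFP+ arrays lay below both other groups, and the full difference was -0.95 ± 0.23 (adjusted p = 0.00861) from steps of 0.47 and -1.42. Hey1, a related repressor, fell by 1.76 (SE 0.21), shared between a stage step of -0.86 and a sort step of -0.90. Nrarp, a feedback inhibitor, stood at 9.61, 9.53 and 9.11 at e10.5, 10.01, 10.09 and 10.06 in the later Sox9-GFP+ arrays and 8.02, 8.33 and 8.10 in Ngn3-GFP+ cells (-1.26 ± 0.21), so its sort step (-1.90) exceeded the full difference. Hes5 differed by 0.27 ± 0.13 (adjusted p = 0.15), and Hey2 did not pass the filter on low values.

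Pancreatic progenitor factors gave 4 rises and 10 falls among 23 tested, with a median of -0.32 (2 and 4 without the globin-high arrays). Of the falls, 7 were called in the sort step alone. Ptf1a, which early progenitors and later acinar cells need, read 8.88, 8.35 and 7.96 at e10.5, 8.78, 8.71 and 9.15 in Sox9-GFP+ cells of e15.5 and 6.32, 6.44 and 7.47 in Ngn3-GFP+ cells. It fell by 1.65 (SE 0.31, adjusted p = 0.00145), all of it in the sort step (-2.14). Myc, the growth regulator, fell from 10.44, 10.12 and 10 to 7.94, 7.44 and 8.94 (-2.08 ± 0.29), with a sort step of -1.74. Nr5a2, a nuclear receptor of the exocrine lineage, fell by 0.77 (SE 0.18), with a sort step of -1.10. Gata4 fell by 1.42 (SE 0.25), with steps of -0.69 and -0.73.

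Other progenitor genes followed the stage. Sall4, a zinc finger gene of stem cells, read 11, 11 and 10.73 at e10.5, 9.33, 9.47 and 9.31 in the later Sox9-GFP+ arrays and 8.79, 9.45 and 8.63 in Ngn3-GFP+ cells (-1.96 ± 0.23), with a called stage step of -1.54. Onecut2 fell by 2.55 (SE 0.18) after a larger stage step (-3.10). Glis3 and Bicc1, both known from kidney and pancreatic ducts, rose by 1.70 ± 0.15 and 1.84 ± 0.29, with stage steps of 1.51 and 2.14 and sort steps of 0.18 and -0.31.

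Most tested mitosis and S phase genes fell. Of 31 tested mitosis genes 0 rose and 30 fell, with a median of -1.17, and 29 of the 30 were called in the sort step alone. Of 30 tested S phase genes 0 rose and 26 fell, with a median of -0.78, and 24 were called in the sort step alone. The sort step called 31 of the 31 mitosis genes and 28 of the 30 S phase genes lower, and the stage step called 1 and 3 of them higher. Bub1, a spindle checkpoint kinase, read 10.22, 10.39 and 10.30 at e10.5, 10.43, 10.17 and 10.40 in Sox9-GFP+ cells of e15.5 and 8.69, 7.72 and 8.46 in Ngn3-GFP+ cells, a fall of 2.02 (SE 0.24, adjusted p = 4.91e-05). Cdk1, the mitotic kinase, went from 10.17, 10.42 and 10.36 to 9.86, 8.11 and 8.77 (-1.40 ± 0.31, adjusted p = 0.00505) and Cdc20, which activates the anaphase-promoting complex, from 9.98, 9.72 and 9.33 to 8.85, 7.78 and 8.90 (-1.17 ± 0.26, adjusted p = 0.00509). Ngn3-GFP+ array 2 was the lowest in all 3 genes. Mki67, the proliferation marker, fell by 0.77 (SE 0.12), and Top2a, a topoisomerase of dividing cells, by 1.24 (SE 0.19).

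In the S phase list, Rrm2, a subunit of ribonucleotide reductase, read 10.65, 10.66 and 10.30 at e10.5, 10.45, 10.28 and 10.48 in the later Sox9-GFP+ arrays and 8.79, 8.24 and 8.39 in Ngn3-GFP+ cells (-2.06 ± 0.23, adjusted p = 2.87e-05). Orc1, of the origin recognition complex, fell by 1.53 (SE 0.17). Pcna, the sliding clamp, fell by 0.59 (SE 0.12) from a high level of 12.25 to 12.49, and Tk1 differed by 0.05 ± 0.25 (adjusted p = 0.919). The mean level of the mitosis list was 9.96 to 10.18 in the e10.5 arrays, 10.23 to 10.46 in the Sox9-GFP+ e15.5 arrays and 8.43 to 9.17 in the Ngn3-GFP+ arrays, with Ngn3-GFP+ array 2 lowest. Without that array 27 mitosis genes were called lower and the median was -0.93. Without the globin-high arrays 9 mitosis and 4 S phase genes were called, although 31 of 31 and 30 of 30 had a difference below 0, with medians of -0.96 and -0.63. Ccnb1 was not analysed here.

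Cell cycle regulators outside these lists were mixed, with 6 rises and 3 falls among 17 tested (4 and 0 without the globin-high arrays). Cyclin D1 (Ccnd1) fell from 11.88, 11.59 and 11.29 to 10.24, 8.08 and 9.93 (-2.17 ± 0.39), and its sort step of -1.84 was -1.17 without Ngn3-GFP+ array 2. Rbl2, a retinoblastoma relative of resting cells, rose by 1.20 ± 0.18, with a stage step of 1.35. The inhibitor Cdkn1b differed by -0.12 ± 0.20 (adjusted p = 0.746), and Cdkn1c fell by 0.60 (SE 0.15).

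Mitotic genes are known to share promoter elements, so 2 of their promoters are shown as for Npy. Capitals mark TTTGAA, the letters of the cell cycle genes homology region, and CCAAT, each on either strand. The 2 motifs were chosen after the values were seen, and no motif overlaps the other in these windows.
Cdc20, chr4:118437294-118437593, minus strand: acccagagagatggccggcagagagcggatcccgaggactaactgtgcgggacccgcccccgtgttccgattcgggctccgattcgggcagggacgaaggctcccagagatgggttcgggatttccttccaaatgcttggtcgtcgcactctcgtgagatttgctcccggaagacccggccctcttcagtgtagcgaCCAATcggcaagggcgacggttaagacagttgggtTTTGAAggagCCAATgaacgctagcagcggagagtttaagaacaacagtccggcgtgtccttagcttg
Cdk1, chr10:69352863-69353162, minus strand: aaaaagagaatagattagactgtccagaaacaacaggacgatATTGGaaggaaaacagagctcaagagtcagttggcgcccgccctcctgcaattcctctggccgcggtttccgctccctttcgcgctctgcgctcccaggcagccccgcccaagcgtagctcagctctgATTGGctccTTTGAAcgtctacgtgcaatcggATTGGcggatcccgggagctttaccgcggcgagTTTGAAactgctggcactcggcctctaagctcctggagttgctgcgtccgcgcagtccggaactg
The Cdc20 window holds 1 TTTGAA and 2 CCAAT, and the Cdk1 window 2 and 3. TTTGAA was found in 19 of the 26 mitosis genes with a promoter in the table (73.1%) and in 4 of 26 S phase genes (15.4%), against 20.1% of 26735 genes. CCAAT was found in 69.2% of the mitosis and 65.4% of the S phase genes, against 41% of all genes. A match describes the letters and is not evidence of a bound site.

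**Figure D3:**
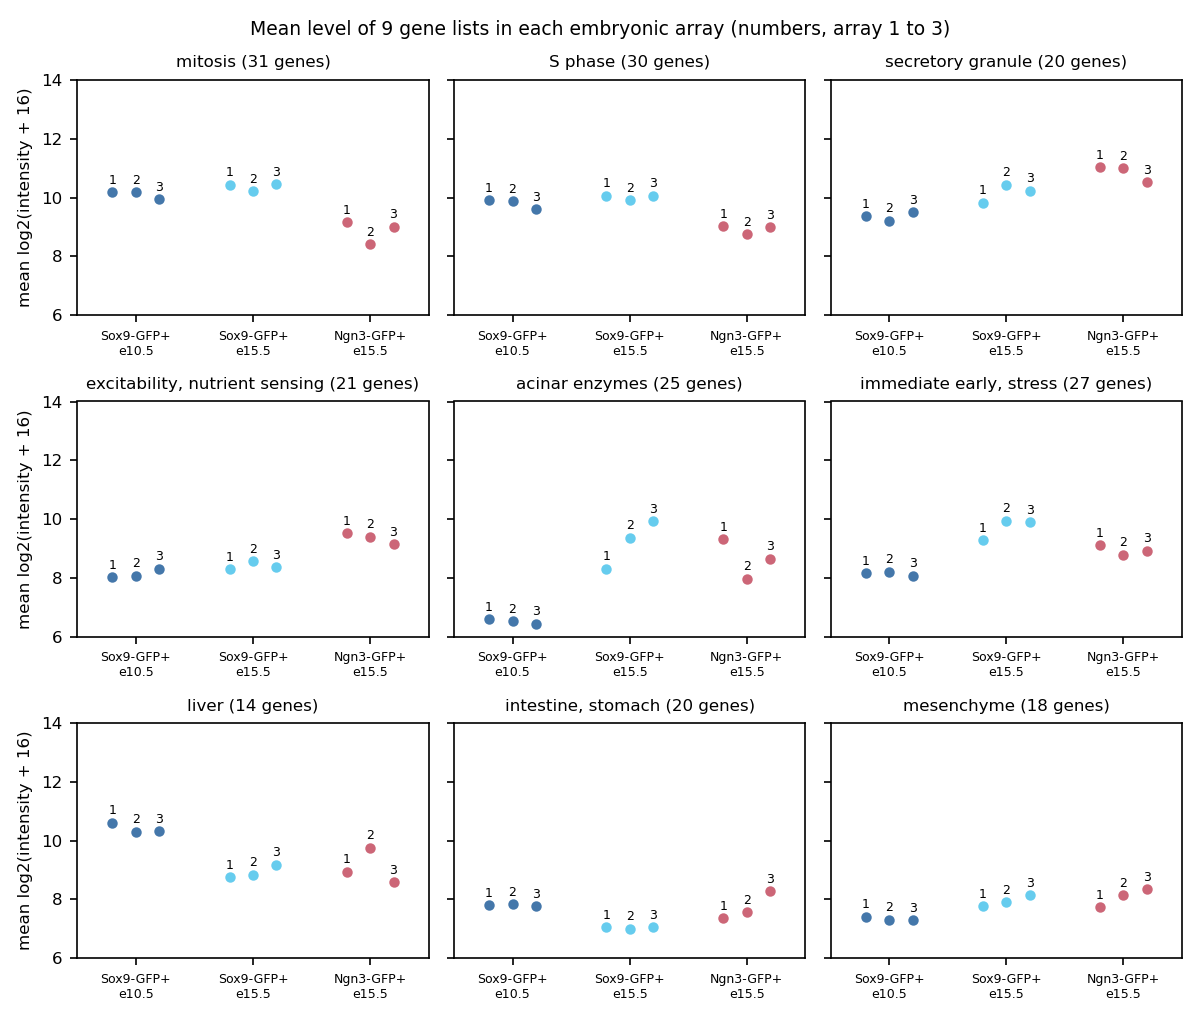
Mean level of 9 gene lists in each embryonic array, in log2(intensity + 16) units on the vertical axis, for the 3 groups (numbers beside the points, array 1 to 3). The mitosis list lies at 8.43 to 9.17 in the Ngn3-GFP+ arrays and at or above 9.96 in the other 6 arrays, and the gut and liver lists differ more between single Ngn3-GFP+ arrays than the granule list does.

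Acinar digestive enzymes, known as products of another pancreatic lineage, were higher in the Ngn3-GFP+ arrays than at e10.5. Of 25 tested, 18 rose and 0 fell, with a median of 1.79 (15 and 0, median 2.05, without the globin-high arrays). The median stage step was 2.64 and the median sort step -0.58. Chymotrypsinogen Ctrb1 (chr8:111686510-111691010) read 6.33, 6.04 and 7.34 at e10.5, 13.16, 13.57 and 13.69 in Sox9-GFP+ cells of e15.5 and 13.28, 13.33 and 13.37 in Ngn3-GFP+ cells. Both groups of e15.5 stood together near the top of the range, and the rise was 108-fold (6.76 ± 0.24, adjusted p = 4.69e-10). The lipase-related Pnliprp1 rose 33.0-fold in the same way, to between 12.16 and 12.40 (5.04 ± 0.22). Carboxypeptidase A1 (Cpa1), which also marks early multipotent progenitors, read 10.22, 9.79 and 9.23 at e10.5, 12.74, 12.65 and 12.91 in the later Sox9-GFP+ arrays and 10.64, 10.74 and 11.75 in Ngn3-GFP+ cells (1.30 ± 0.26), so a stage step of 3.02 was followed by a sort step of -1.72. Cpb1 rose by 5.20 ± 0.69 and read 11.59, 9.39 and 9.48 in Ngn3-GFP+ cells, array 1 being highest.

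The number of enzymes called in the stage step alone, 11, depended on single arrays: it was 6 without Sox9-GFP+ e15.5 array 1, whose enzyme levels were the lowest of its group, and 17 without Ngn3-GFP+ array 2. The mean level of the enzyme list ranged from 7.98 to 9.32 over the Ngn3-GFP+ arrays, from 8.32 to 9.93 over the Sox9-GFP+ e15.5 arrays and from 6.45 to 6.59 at e10.5. How much of this signal came from acinar cells in the sorted pools was not tested.

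Acinar regulators and secretory pathway genes gave 12 rises and 3 falls among 17 tested, with a median of 0.96 (11 and 0 without the globin-high arrays). The 3 that fell were Ptf1a, Nr5a2 and Gata4, given above. Bhlha15 (Mist1), the factor of mature acinar secretion, rose by 2.00 ± 0.21, from a stage step of 2.88 and a sort step of -0.87. Cckar, the cholecystokinin receptor, read 7.01, 7 and 6.84 at e10.5, 11.10, 11.23 and 11.53 in the later Sox9-GFP+ arrays and 8.35, 8.78 and 9.76 in Ngn3-GFP+ cells (2.01 ± 0.28; steps 4.34 and -2.33). Serpini2, a serpin of the exocrine pancreas, rose 30.1-fold (4.91 ± 0.23) with a sort step of -1.40. In these 3 genes the Ngn3-GFP+ arrays lay between the other 2 groups without overlap.

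Duct genes gave 12 rises and 3 falls among 28 tested, with a median of 0.64, a median stage step of 0.81 and a median sort step of -0.08 (9 and 1 without the globin-high arrays). Dcdc2a, a doublecortin-domain gene of cilia, read 6, 5.64 and 5.80 at e10.5, 10.62, 10.84 and 10.85 in the later Sox9-GFP+ arrays and 11.39, 11.32 and 10.84 in Ngn3-GFP+ cells, a rise of 41.3-fold (5.37 ± 0.20, adjusted p = 6.53e-10), with a stage step of 4.95. Pkhd1, the gene of recessive polycystic kidney disease, rose by 1.99 ± 0.31, and Tm4sf4, a tetraspanin-like gene of the pancreas, by 2.51 ± 0.28, both in the stage step. Cldn10, a tight junction gene, rose to 10.70, 11 and 11.12 in Sox9-GFP+ cells but was 9.58, 7.47 and 8.55 in Ngn3-GFP+ cells, from 6.86, 6.99 and 6.93 at e10.5 (1.61 ± 0.34; steps 4.01 and -2.41). Spp1 was not analysed here.

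**Figure D4:**
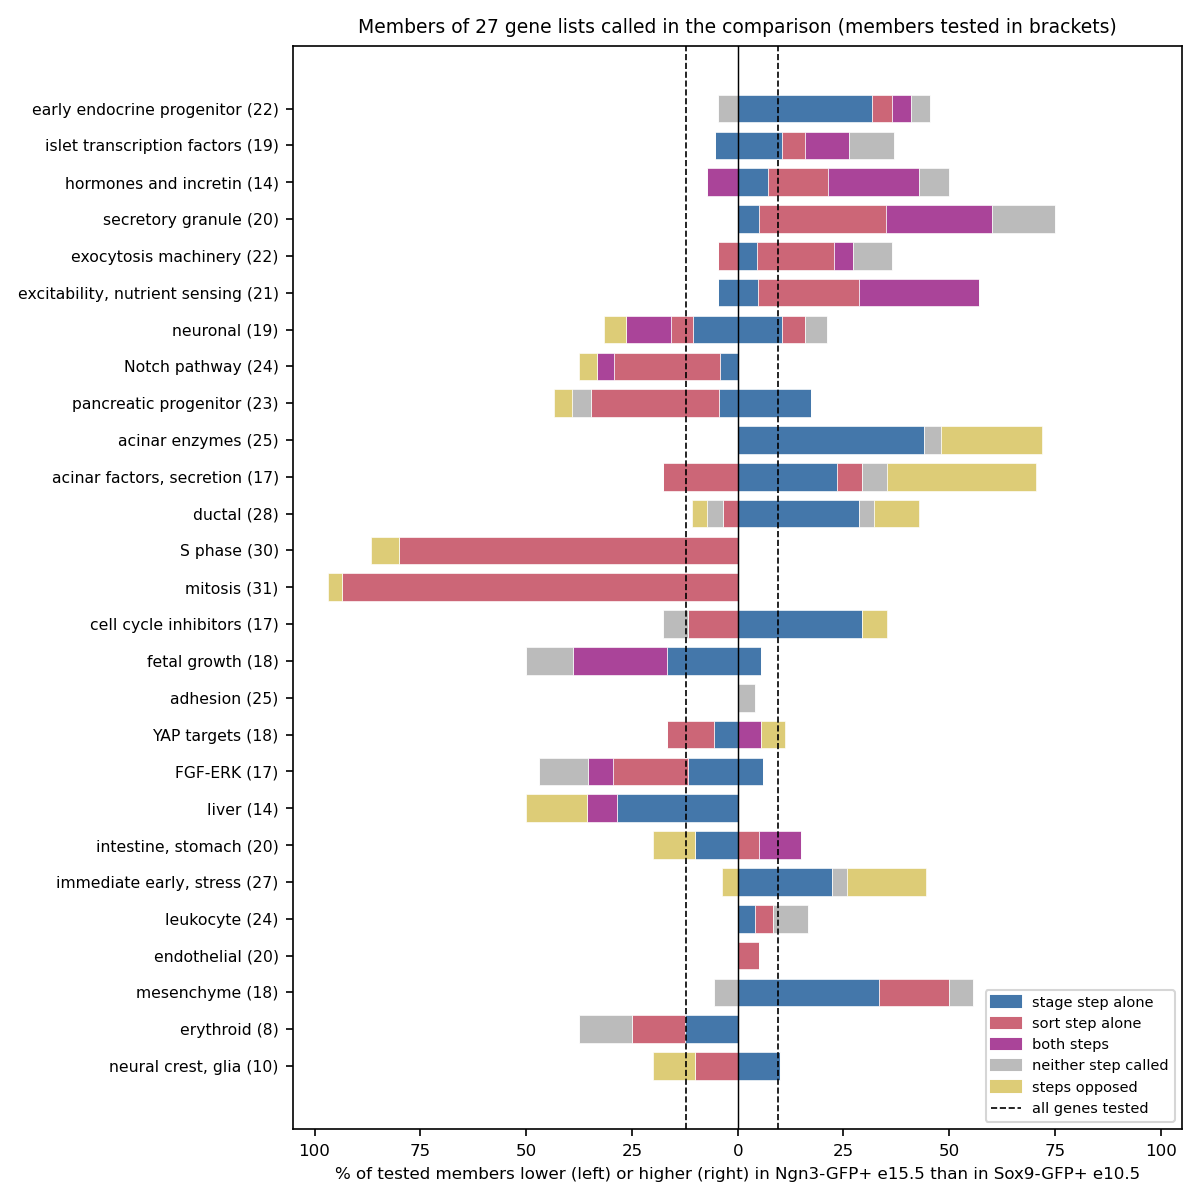
Share of tested members of 27 gene lists that were called lower (left) or higher (right) in Ngn3-GFP+ e15.5 than in Sox9-GFP+ e10.5 arrays, coloured by the step in which they were called, with the members tested in brackets. Dashed lines mark all genes tested (9.64% higher, 12.3% lower). The mitosis and S phase bars lie almost wholly in the sort step (29 of 30 and 24 of 26 falls), and 11 of the 18 acinar enzyme rises and 8 of the 12 duct rises lie in the stage step alone.

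In the list of fetal growth genes 9 of 18 tested members fell, 1 rose and 8 were not called, with a median of -0.54 (5 and 0 without the globin-high arrays). Lin28b, the RNA-binding protein that blocks let-7 maturation (chr10:45376617-45486314), read 10.66, 10.20 and 10.12 at e10.5, 5.82, 5.74 and 5.81 in Sox9-GFP+ cells of e15.5 and 6.07, 6.08 and 5.99 in Ngn3-GFP+ cells. The fall was 19.4-fold (-4.28 ± 0.14, adjusted p = 2.03e-10), all in the stage step (-4.53). Hmga2, a chromatin protein and let-7 target, fell by 1.93 (SE 0.18) and read 9.21, 9.13 and 8.69 in Ngn3-GFP+ cells against 10.64, 10.10 and 10.10 in Sox9-GFP+ cells, with a called sort step of -1.27. Gpc3, a glypican that restrains growth, fell 6.55-fold (-2.71 ± 0.22) with a called sort step of -1.94, and the imprinted gene Mest fell by 2.02 (SE 0.28). Igf2bp1 fell by 1.93 (SE 0.34), with a stage step of -1.61. Plagl1, an imprinted zinc finger gene, was the member that rose (1.23 ± 0.26). Igf2 fell by 1.73 (SE 0.41), and by 1.12 without Ngn3-GFP+ array 1, the lowest of its group. The largest fall of the comparison was Nepn (nephrocan), known from the early gut endoderm, at 13.75, 13.57 and 13.23 at e10.5 and 7.13, 6.37 and 6.60 in Ngn3-GFP+ cells (113-fold, -6.81 ± 0.22), with a stage step of -6.40. Sox11, a progenitor factor of many tissues, fell 13.5-fold from 14.57, 14.45 and 14.35 to 9.83, 10.56 and 11.71 (-3.76 ± 0.35), with a called stage step of -2.67.

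The other falls among the 10 largest lay in the stage step or in both steps. Fndc3c1, a fibronectin type III domain gene, read 11.11, 11.04 and 10.91 at e10.5, 5.70, 5.12 and 5.85 in the later Sox9-GFP+ arrays and 6.05, 6.06 and 5.83 in Ngn3-GFP+ cells (33.0-fold, -5.05 ± 0.18). Cysltr2, a leukotriene receptor, fell 31.0-fold from between 10.10 and 10.70 to between 5.22 and 5.67 (-4.96 ± 0.42), and Prtg (protogenin), an adhesion gene of early embryos, fell by 3.66 (SE 0.22). B3gnt5, a glycosyltransferase, fell by 3.77 (SE 0.24) through steps of -2.84 and -0.93, and Rtn1, a reticulon, by 3.66 (SE 0.22) through steps of -2.88 and -0.77. Ak4, a mitochondrial adenylate kinase, fell by 3.73 (SE 0.47) and read 7.09, 5.04 and 7.52 in Ngn3-GFP+ cells, array 2 being lowest. The glucose transporter gene Slc2a3 fell by 3.87 (SE 0.23) through steps of -1.89 and -1.97. Smaller falls were often called in the sort step alone. Of 1309 such genes, 381 fell at least 2-fold, among them Id3 (-2.79 ± 0.38).

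FGF signalling is known to expand the early bud. Of 17 tested FGF receptors and feedback targets 8 fell, 1 rose and 8 were not called (median -0.38; 2 and 1 without the globin-high arrays). Etv5, an ETS factor induced by FGF, read 11.25, 10.93 and 10.82 at e10.5, 9.70, 9.26 and 9.27 in the later Sox9-GFP+ arrays and 8.88, 7.88 and 8.32 in Ngn3-GFP+ cells. The 3 groups did not overlap, and both steps were called (-1.59 and -1.05; full difference -2.64 ± 0.25). Etv4 fell by 1.85 (SE 0.17) in the stage step (-1.58). The feedback phosphatase Dusp6 fell by 2.07 (SE 0.36), mostly in the sort step, which was -1.52 and became -0.92 without Ngn3-GFP+ array 2. Fgfr3 was the member that rose (1.47 ± 0.26; stage step 1.54), while Fgfr2, the receptor of the bud epithelium, differed by 0.07 ± 0.23 (adjusted p = 0.878).

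Epithelial adhesion and polarity genes gave 1 rise and 0 falls among 25 tested, with a median of 0.00 (0 and 0 without the globin-high arrays). Cdh1 (E-cadherin) differed by 0.25 ± 0.13 (adjusted p = 0.19), Epcam by -0.05 ± 0.11 (adjusted p = 0.793) and Vim by -0.06 ± 0.10 (adjusted p = 0.742). Vim nevertheless had called steps of opposite sign, 0.65 and -0.71. Among 18 genes of the Yap pathway 2 rose and 3 fell (0 and 0 without the globin-high arrays), with Tead2, a DNA-binding partner of Yap, lower by 1.36 (SE 0.20). Neuronal genes gave 4 rises and 6 falls among 19 tested (0 and 2 without the globin-high arrays). Tubb2b, a neuronal beta-tubulin, fell by 1.53 (SE 0.16) while its relative Tubb3 rose by 1.26 ± 0.28. The number of neuronal falls was 3 without e10.5 array 1 or without e10.5 array 3. Over all genes 9.64% were called higher and 12.3% lower, and the shares of the Yap genes were near these.

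Immediate early genes, which respond within minutes to stress such as cell dissociation, gave 12 rises and 1 fall among 27 tested (median 0.70; 11 and 0 without the globin-high arrays). Their median stage step was 1.63 and their median sort step -0.56. Fos read 6.66, 7.82 and 7.89 at e10.5, 10.22, 11.15 and 10.99 in Sox9-GFP+ cells of e15.5 and 10.62, 9.97 and 9.92 in Ngn3-GFP+ cells (2.72 ± 0.31). Egr1 rose by 2.08 ± 0.32 and Junb by 1.94 ± 0.23. Egr2 was the member that fell: it read 6.85, 7.88 and 6.72 at e10.5, 9.77, 10.64 and 10.37 in the later Sox9-GFP+ arrays and 5.84, 5.35 and 5.50 in Ngn3-GFP+ cells (-1.58 ± 0.30; steps 3.11 and -4.70). The labels say that enzymes were used to dissociate the tissue where needed and do not say at which age. The part of dissociation in these differences was not tested.

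Markers of other cell types moved with some of the groups. Liver genes gave 0 rises and 7 falls among 14 tested (median -1.01, median stage step -1.33; 0 and 4 without the globin-high arrays), and their mean level was 10.31 to 10.61 at e10.5, 8.77 to 9.18 in Sox9-GFP+ e15.5 and 8.60 to 9.76 in Ngn3-GFP+ arrays. Fgg, a fibrinogen chain, fell from between 9.68 and 10.21 to between 6.15 and 7.16 (-3.47 ± 0.26), in the stage step. Alb read 9.11, 10.97 and 5.49 in the Ngn3-GFP+ arrays and was not called (0.12 ± 1.00). Gut markers gave 3 rises and 4 falls among 20 tested (3 and 1 without the globin-high arrays), with mean levels of 7.77 to 7.83 at e10.5 and 7.37 to 8.28 in the Ngn3-GFP+ arrays. In the sort step 14 of the 20 were called higher and 0 lower, against 23.3% of all genes higher. Of the 5640 genes with a mean below the table median, that step called 2463 higher and 296 lower. The gut count of 14 was 8 without any one of the Sox9-GFP+ e15.5 arrays and 9 without Ngn3-GFP+ array 3. After quantile normalization 6 gut markers were called higher and 2 lower in the sort step, against 2164 of all 16881 genes higher. The stage step called 2 of the 20 gut markers higher and 10 lower, with a median of -0.61. Over all 16881 genes it called 2060 higher and 2693 lower. Its median over the 5640 dim genes was -0.31. Lgals4, a gut galectin, read 7.55, 7.81 and 7.65 at e10.5 and 8.94, 9.40 and 10.20 in Ngn3-GFP+ cells (1.84 ± 0.25), with a called sort step of 1.49.

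Mesenchyme genes gave 10 rises and 1 fall among 18 tested (median 0.52; 4 and 0 without the globin-high arrays), with mean levels of 7.29 to 7.42 at e10.5, 7.78 to 8.14 in Sox9-GFP+ e15.5 and 7.75 to 8.36 in Ngn3-GFP+ arrays. Dcn (decorin), of connective tissue, read 6.73, 6.16 and 6.38 at e10.5, 9.08, 9.57 and 10.18 in the later Sox9-GFP+ arrays and 8.91, 10.56 and 10.22 in Ngn3-GFP+ cells (3.47 ± 0.35). Leukocyte markers gave 4 rises among 24 tested, 7 without Ngn3-GFP+ array 2 and 1 without the globin-high arrays. The sort step called 9 of them higher and 1 lower, against 23.3% and 18.4% of all genes. It called 2 and 3 higher without Sox9-GFP+ e15.5 array 2 and 3 and 4 without Ngn3-GFP+ array 1. After quantile normalization it called 2 of them higher and 0 lower. Their mean level was 6.75 to 7.01 at e10.5 and 7 to 7.47 in Ngn3-GFP+ arrays, with Ptprc (CD45) at 6.93 to 7.19 there. C1qa, a complement gene of macrophages, rose by 1.62 ± 0.22. Endothelial markers gave 1 rise among 20 tested (0 without the globin-high arrays), with mean levels of 6.94 to 7.12 and 7.16 to 7.29. The sort step called 10 higher and 0 lower, against 23.3% and 18.4% of all genes. It called 4 and 6 higher without Sox9-GFP+ e15.5 array 1 and 2 and 6 without Ngn3-GFP+ array 3. After quantile normalization it called 1 higher and 0 lower. Erythroid markers gave 0 rises and 3 falls among 8 tested, 1 fall without e10.5 array 1 or 2 (Hbb-y and Hba-x lost their calls) and 0 without the globin-high arrays. Neural crest markers gave 1 rise and 2 falls among 10 (1 and 1 without the globin-high arrays), and 0 falls without e10.5 array 1 or without Ngn3-GFP+ array 2. The neural crest rise was S100b (2.54 ± 0.40), which also stood at 9.73 to 10.89 in the Sox9-GFP+ e15.5 arrays, while Sox10 differed by -0.03 ± 0.13. The part of these cells in the other differences was not tested. In the full difference 9.64% of all genes were called higher and 12.3% lower.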

How the data were processed

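The deposited series table holds, per the labels and the submitters' processing notes, PLIER intensities (linear scale) of 35557 probe sets on 15 Affymetrix arrays, summarised by the authors with Expression Console 1.1. The scaling between arrays is not stated in the labels or the table. Array medians ran from 165.5 to 211.7. Per the labels' protocols, 20 ng of total RNA was amplified from poly(A) primers. No array has a read depth, and the 3 arrays per group limit the precision. Probe sets with 1 gene (21789) were used, those with several (1621) or none (12147) were not, and of several probe sets of a gene the one with the highest mean over the 15 arrays was taken, with 21698 probe sets matched to RefSeq (GRCm38.p6) by gene ID.

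From the deposited intensities, log2(value + 16) was computed, genes above 97.8 (the 30th percentile) in at least 3 arrays were kept (16881), and all 5 groups were fitted at once with limma 3.58.1 (lmFit, eBayes) in R 4.3.3. Each difference was adjusted by Benjamini-Hochberg within itself. An exact test of 3 arrays against 3 cannot go below p = 0.1, so none is given for single genes. The comparison, its members and the 27 gene lists were chosen with earlier results of these data known, so lists are described by counts and medians only. Some genes are in more than 1 list. Named genes are Sox9 and Neurog3, the 10 largest rises and falls, the 6 largest each way of the stage-alone and sort-alone classes, up to 4 called members of each list, and other members named for their known role with their values known. The fit was tested on simulated data. Alternatives changed the offset, scaling, filter, probe set rule, arrays in the fit, variance model, weights, replicate block and fold threshold. Figures were drawn with matplotlib 3.10.9.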

Additional observations from a re-analysis of the deposited data

How the results depend on the processing

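In the full difference, the stage step and the sort step 3712, 4753 and 7033 genes were called, and 3970, 2788 and 4115 after quantile normalization. Fitting only the 2 groups of each comparison gave 2166 in the full difference, 7147 in the stage step and 729 (of 1652) in the sort step alone. Array weights gave 2183 in the full difference and 872 in the sort step alone. Against a 1.5-fold threshold (treat) 581, 425 and 178 genes were called, with 221 in the stage step alone, 80 in the sort step alone and 6 in both. Without the 3 arrays with Hbb-y above 9, which leaves 1 e10.5 array assumed to vary like the other groups, 1016 genes were called in the full difference, 2672 in the stage step, 480 in the stage step alone, 277 in the sort step alone and 43 in both steps. Fewer arrays are the construction of that setting, and the cause of the other shifts was not tested. Leaving out each array in turn gave 2553 to 3756 genes in the full difference, 1840 to 5951 in the stage step, 3758 to 7159 in the sort step, 725 to 1289 in the stage step alone, 1168 to 1793 in the sort step alone and 84 to 220 in both. The stage step stood at 2179 and 1896 without e10.5 array 2 or 3 and at 2168 and 1840 without Sox9-GFP+ e15.5 array 2 or 3, and the sort step at 4643 and 3758 without the latter arrays. The stage-alone count was 730 and 725 without e10.5 array 2 or 3. Genes called in both steps numbered 111 without e10.5 array 2, and 101, 89 and 84 without Sox9-GFP+ e15.5 array 1, 2 and 3. Median centring, which moved the median of all genes to -0.15 in the stage step and 0.16 in the sort step, changed the share of higher calls from 43.3% to 28.1% and from 55.9% to 69.9%. A filter at the table median gave 58.2% and 40.7%, and treat gave 81.9% in the stage step and 24 of 178 calls higher in the sort step. In the full difference the share, 43.9%, was 60.3% without the Hbb-y arrays. For the 120 genes picked by rule (reporter genes, largest differences, called list members), 2617 of 2758 values under the alternatives kept their call, 141 lost it and 0 reversed. Members named above only for their known role are not among the 120, and some of the 120 are not named above. Of the 141, 40 were lost without the Hbb-y arrays and 30 under treat, and most of these genes were chosen because they were called. Array weights left 8 of the 15 granule rises, 17 of the 26 S phase falls and 20 of the 30 mitosis falls, and treat 9 mitosis falls.

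Same-numbered arrays did not deviate together over all genes (correlations of -0.31 to 0.044), so pairing by number was not seen and was not assumed. Such correlations cannot exclude it. With the replicate block, 3389, 3694 and 6245 genes were called, with 1020 in the stage step alone, 1492 in the sort step alone and 149 in both steps. Array signal, not counted reads, limits dim genes: 5640 of the 16881 genes had a mean below the table median.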

Other observations

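The following genes were grouped after their values were seen and are given as descriptions. Unlike the gene lists above, these groups were not counted without the globin-high arrays. The Id genes, which code for inhibitors of basic helix-loop-helix factors, fell in 3 of 4 members, each called in the sort step alone. Of all genes tested, 12.3% were called lower, and 7.75% were lower with the sort step alone. Id3 read 10.11, 9.76 and 9.06 in the Sox9-GFP+ e10.5 arrays, 9.47, 8.83 and 8.82 in the Sox9-GFP+ e15.5 arrays and 5.81, 6.99 and 7.75 in the Ngn3-GFP+ arrays (-2.79 ± 0.38 SE). Id1 fell by 2.54 (SE 0.28) and Id2 by 1.44 (SE 0.18), and Id4 differed by 0.23 ± 0.23 (limma adjusted p = 0.538). The nuclear factor I genes, which act in the maturation of many tissues, rose in 4 of 4 members, each called in the stage step alone. Of all genes tested, 9.64% were called higher, and 4.76% were higher with the stage step alone. Nfib read 7.70, 7.66 and 7.60 at e10.5, 10.83, 11.17 and 11.28 in Sox9-GFP+ cells of e15.5 and 11.20, 10.28 and 10.94 in Ngn3-GFP+ cells (3.15 ± 0.21), and the other 3 rose by 1.45 to 3.42.

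Glucose uptake and glycolysis genes fell in 12 of 18 tested members and rose in 1, with a median of -0.67, against 12.3% of all genes lower and 9.64% higher. The calls of Tpi1, Pfkl and Ldhb were lost without e10.5 array 1. The transporter gene Slc2a3 (GLUT3) read 10.49, 10.23 and 9.77 at e10.5, 8.33, 8.32 and 8.16 in Sox9-GFP+ cells of e15.5 and 6.15, 6.06 and 6.68 in Ngn3-GFP+ cells, so the 3 groups did not overlap (-3.87 ± 0.23). Hk2, a hexokinase, fell by 2.41 (SE 0.38), Slc16a1, a lactate transporter that mature beta cells lack, by 1.95 (SE 0.29) and Ldha, lactate dehydrogenase A, by 1.29 (SE 0.13). Aldoc, an aldolase, was the member that rose (1.42 ± 0.33).

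Of 167 tested microRNA genes 4 were higher and 9 lower in the full difference, against 9.64% and 12.3% of all genes. The sort step called 93 of the 167 higher and 10 lower, against 23.3% and 18.4% of all genes. The stage step called 2 higher and 60 lower, so a called sort-step rise was common in this class. The probe sets read precursor or host transcripts, not mature microRNAs. All 5 tested members of the miR-17 cluster, known from dividing cells, fell: the host Mir17hg by 1.75 (SE 0.21), Mir17 by 1.85 (SE 0.29), Mir18 by 2.27 (SE 0.23), Mir20a by 1.36 (SE 0.15) and Mir19b-1 by 1.19 (SE 0.17). Mir17hg read 7.79, 8.24 and 8.30 at e10.5, 8.05, 7.86 and 7.75 in the later Sox9-GFP+ arrays and 6.46, 6.75 and 5.86 in Ngn3-GFP+ cells. The 5 are read from one primary transcript, so they are not independent. Mir7b, of a microRNA family abundant in islets, rose from 7.21, 7.41 and 8.41 to 10.15, 10.16 and 9.49 (2.26 ± 0.37), with a called sort step of 1.77. Mirlet7f-1, the only let-7 gene among those called, fell by 1.74 (SE 0.26), with a stage step of -0.64 and a sort step of -1.10. Mature sequences from RefSeq (GRCm38.p6) are shown with the seed, bases 2 to 8, in capitals, because 2 members of the cluster share one.
miR-17-5p: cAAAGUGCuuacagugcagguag
miR-20a-5p: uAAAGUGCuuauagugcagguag
miR-18a-5p: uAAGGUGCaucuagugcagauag
miR-19b-3p: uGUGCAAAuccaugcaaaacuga
miR-7b-5p: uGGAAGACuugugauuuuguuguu
MiR-17-5p and miR-20a-5p have the seed AAAGUGC in common, and the other 3 have seeds of their own.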
